A study of Mus musculus with 6 samples.

Results

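Endogenous retroviruses of the ERVK class are old retroviral insertions in the mouse genome, and their open chromatin was measured here by ATAC-seq in leukaemia cells that kept or lost 1 allele of Usp18. A peak was taken as an ERVK peak when the annotation of the peak table named an ERVK repeat at its centre and placed it in an intron or between genes. By this rule, which used no tag values, 3348 of 175929 peaks were ERVK peaks. Each had been found as a peak in the oil group, the tamoxifen group or both. The cells were Usp18+/f UBCER-Cre AE9a cells, made by transducing fetal liver cells with a retrovirus for AML1-ETO9a, a shortened AML1-ETO fusion protein with which mice develop acute myeloid leukaemia, and were grown in recipient mice. The mice received oil (3 libraries, Usp18+/f, replicates 1, 2 and 4) or tamoxifen (3 libraries, Usp18+/Δ, replicates 1, 3 and 4), and lineage-negative, c-Kit-positive, GFP-marked cells were sorted from the spleen at day 3 after the first injection. All 6 libraries therefore carried the leukaemia gene, the floxed allele and a Cre that is expressed ubiquitously and acts when tamoxifen is given, and the effect of tamoxifen itself cannot be told apart from that of the lost allele. The methods give as many mice in each group as there are libraries, but neither they nor the labels tie a library to its own mouse, so p-values measure the spread between these libraries.

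A full ERVK provirus has 2 long terminal repeats (LTRs), which hold its promoter and enhancer, around an internal part with the viral genes, and most copies have recombined to a single LTR. In the repeat names used here, IAP stands for intracisternal A particle, a young and still mobile family, ETn and MusD for another pair of young families, RLTR, RMER and MLTR for rodent LTR families of various ages, and the ending int for an internal part. Cells silence young copies with DNA methylation and with histone H3 lysine 9 methylation, which the enzyme SETDB1 deposits where zinc finger proteins bring the corepressor TRIM28. Older LTRs often carry binding sites for the transcription factors of blood cells, among them RUNX1 (the source of the DNA-binding part of AML1-ETO), PU.1, GATA, C/EBP and STAT factors, and some serve as enhancers. Usp18, the gene deleted here, encodes a protease that removes ISG15 from proteins and dampens the response to type I interferon.

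The libraries held 57358372 to 74667822 tags, of which 17498116 to 21085920 lay in peaks and 175632 to 234220 in ERVK peaks, with a median of 32.5 to 43.75 tags per ERVK peak. Over the ERVK peaks, chi-square per degree of freedom was 1.16 to 1.23 between pairs of oil libraries, 1.68 between tamoxifen replicates 1 and 3, and 2.82 and 2.87 between tamoxifen replicate 4 and the other two, so tamoxifen replicate 4 stood apart within its group. The peak at the Usp18 promoter held 459, 415 and 440 normalised tags in the oil libraries and 441, 468 and 438 in the tamoxifen libraries, and none of the 15 peaks nearest to Usp18 was called, but the labels do not say which exons were floxed, so these values are no check of the deletion. Markers of the sorted cells were open (5 of 6 progenitor genes had a promoter peak, Ptprc did not), with summed tags of 7462 to 7607 with oil and 7398 to 8384 with tamoxifen. Of their 32 promoter peaks 1 was called, that of Cd34, a surface protein of stem and progenitor cells, which was higher with tamoxifen (73.9, 92.6 and 117 tags against 265, 332 and 212, log2 1.50 ± 0.19 SE, DESeq2 adjusted p = 8.32e-12). Among other cell types, 2 of 5 T-cell genes (not Cd3d, Cd4 or Cd8a), 2 of 4 B-cell genes (not Cd79b or Ms4a1) and 2 of 5 mature myeloid genes (not S100a8, S100a9 or Ly6g) had a promoter peak, with sums of 39.7 to 68.3, 504 to 575 and 176 to 202 with oil and 58.7 to 76.4, 457 to 621 and 176 to 192 with tamoxifen. All 5 erythroid genes had one, and their summed tags were lower with tamoxifen (4315 to 4349) than with oil (4500 to 4780). None of their 22 promoter peaks was called. Without overlap between the groups, 13 of these (59.1%) were lower and 1 (4.55%) higher, beside 9.99% and 11.8% of all peaks.

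The copies below are shown because their repeat names are described below for a shift in tags or for a frequent motif, or because the peak itself was called, meaning a DESeq2 adjusted p under 0.05 with a change of more than 2-fold. They are genome sequence of mm10 (NCBI RefSeq, GRCm38.p6), each on the strand given after its position, and capitals mark motif letters that a script found. The first 4 are RLTR50A copies with RUNX letters (TGTGGTT), STAT letters (TTCNNNGAA) and PU.1 letters (GAGGAAGT) in capitals where the window holds them, and the copy on chromosome 3 was called higher with tamoxifen.
RLTR50A chr3:113228095-113228264 (+): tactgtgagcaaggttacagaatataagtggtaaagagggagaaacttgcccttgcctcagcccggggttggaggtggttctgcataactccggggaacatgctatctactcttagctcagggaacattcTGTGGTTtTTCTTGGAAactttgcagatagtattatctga
RLTR50A chr1:21333679-21333848 (+): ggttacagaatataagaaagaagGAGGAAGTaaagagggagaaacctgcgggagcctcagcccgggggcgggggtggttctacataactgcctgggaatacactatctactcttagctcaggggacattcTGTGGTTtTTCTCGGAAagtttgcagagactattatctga
RLTR50A chr2:150307322-150307491 (-): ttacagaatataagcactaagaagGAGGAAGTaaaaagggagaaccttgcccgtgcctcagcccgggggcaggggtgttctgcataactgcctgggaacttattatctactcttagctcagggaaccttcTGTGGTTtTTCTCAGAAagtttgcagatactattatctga
RLTR50A chr12:99647019-99647188 (-): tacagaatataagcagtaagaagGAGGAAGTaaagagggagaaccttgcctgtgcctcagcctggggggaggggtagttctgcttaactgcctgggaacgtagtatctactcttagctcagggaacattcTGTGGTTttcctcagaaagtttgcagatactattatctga

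The next 3 internal parts are named IAPLTR3-int and have GATA letters (AGATAAG) and the ISRE core (GAAANNGAA, here read on the other strand) in capitals. The ISRE is the element through which interferon acts. The copies on chromosomes 12 and 14 were called higher, and the copy on chromosome 17, with GATA letters alone in the shown window, was far more open (558 mean oil tags) and changed by log2 0.17.
IAPLTR3-int chr12:61994417-61994576 (-): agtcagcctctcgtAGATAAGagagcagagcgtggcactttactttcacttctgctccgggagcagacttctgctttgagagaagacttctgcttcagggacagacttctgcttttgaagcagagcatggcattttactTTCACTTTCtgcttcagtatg
IAPLTR3-int chr14:27562715-27562874 (+): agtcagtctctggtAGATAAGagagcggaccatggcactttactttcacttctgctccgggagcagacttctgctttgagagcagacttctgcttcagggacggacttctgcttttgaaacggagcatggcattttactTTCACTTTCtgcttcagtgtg
IAPLTR3-int chr17:18558819-18558978 (+): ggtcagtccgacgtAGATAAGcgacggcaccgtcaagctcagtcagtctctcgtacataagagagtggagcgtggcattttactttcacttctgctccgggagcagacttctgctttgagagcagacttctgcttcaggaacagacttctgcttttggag

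IAPEY4_LTR copies mostly held an E-box (CAGCTG) and C/EBP letters (TTGCNNAA) at a nearly fixed spacing, and 53.4% of RLTR45 peaks held C/EBP letters. The RLTR45 copy on chromosome 13 was the one called peak of its name.
IAPEY4_LTR chr14:43925210-43925289 (+): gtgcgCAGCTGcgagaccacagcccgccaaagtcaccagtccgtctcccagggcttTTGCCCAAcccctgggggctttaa
IAPEY4_LTR chr14:55760253-55760332 (-): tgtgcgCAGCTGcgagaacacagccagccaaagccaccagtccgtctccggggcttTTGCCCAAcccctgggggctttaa
IAPEY4_LTR chr2:154294860-154294939 (-): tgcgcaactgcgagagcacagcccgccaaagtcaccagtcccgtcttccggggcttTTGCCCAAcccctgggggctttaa
RLTR45 chr13:105235751-105235830 (+): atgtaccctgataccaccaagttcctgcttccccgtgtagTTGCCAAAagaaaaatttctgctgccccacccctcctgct
RLTR45 chr17:91390482-91390561 (-): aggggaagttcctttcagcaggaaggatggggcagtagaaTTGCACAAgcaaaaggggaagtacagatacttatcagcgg
RLTR45 chr3:142708107-142708186 (+): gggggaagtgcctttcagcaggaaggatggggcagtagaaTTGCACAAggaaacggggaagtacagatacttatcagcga

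AP-1 letters (TGANTCA) were in 59.6% of RLTR17 peaks. The ISRE core was in 24.5% of RMER6A and 42.9% of RLTR15 peaks, names with lower shares with tamoxifen. The copies below were picked among those that held these letters, and none of them was called. The RMER6A copy on chromosome 11 rose by log2 0.55. The RMER6A copy on chromosome 8 fell (-0.44), as did the RLTR15 copies on chromosomes 5 (-0.26) and 1 (-0.63).
RLTR17 chr3:123256900-123256979 (+): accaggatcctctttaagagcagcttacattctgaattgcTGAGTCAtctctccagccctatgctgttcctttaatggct
RLTR17 chr7:3594855-3594934 (+): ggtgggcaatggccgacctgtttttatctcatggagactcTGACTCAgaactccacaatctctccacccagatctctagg
RMER6A chr8:107574967-107575046 (+): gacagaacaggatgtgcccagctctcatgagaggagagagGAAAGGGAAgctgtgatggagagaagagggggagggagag
RMER6A chr11:6627977-6628056 (-): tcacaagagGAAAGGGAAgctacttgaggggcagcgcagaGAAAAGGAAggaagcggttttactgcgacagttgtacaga
RLTR15 chr5:149587458-149587537 (-): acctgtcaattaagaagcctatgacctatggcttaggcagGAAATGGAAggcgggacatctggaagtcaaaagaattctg
RLTR15 chr1:181149076-181149155 (+): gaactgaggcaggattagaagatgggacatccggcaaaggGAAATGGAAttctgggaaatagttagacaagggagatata

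Both RLTR31M windows below come from neighbouring peaks on chromosome 12 that were called lower, the first with an E-box and GATA letters in capitals. The RLTR10C window is the centre of the peak with the most tags of the most frequent repeat name, and none of its letters are marked.
RLTR31M chr12:110679444-110679563 (+): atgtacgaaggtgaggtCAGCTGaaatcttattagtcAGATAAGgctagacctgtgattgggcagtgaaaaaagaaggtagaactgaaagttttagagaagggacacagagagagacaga
RLTR31M chr12:110679900-110680019 (+): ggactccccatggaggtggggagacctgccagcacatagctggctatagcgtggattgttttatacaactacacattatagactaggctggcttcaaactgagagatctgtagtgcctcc
RLTR10C chr7:16634030-16634149 (+): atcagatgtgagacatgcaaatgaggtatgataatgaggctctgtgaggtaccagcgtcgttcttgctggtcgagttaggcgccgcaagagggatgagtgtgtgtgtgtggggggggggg

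As a class, ERVK peaks had a median change slightly below 0 with tamoxifen, with overlap between the groups, while a small number of single copies passed the test, mostly as more open. The median log2 change of tamoxifen against oil was -0.063 over the 3348 ERVK peaks, -0.020 over 956 ERV1 peaks, -0.012 over 8103 ERVL and MaLR peaks, 0.0023 over 3699 LINE L1 peaks, 0.012 over 96745 intron and intergenic peaks outside repeats, and -0.0013 over all peaks. Set against the mean of the oil libraries, the median ERVK peak lay at log2 -0.013, -0.012 and 0.032 in the oil libraries and at -0.088, -0.13 and 0.011 in the tamoxifen libraries. Tamoxifen replicate 4 thus fell inside the oil range and the groups overlapped. In bulk libraries such as these, a smaller share of open cells and less accessibility per cell cannot be told apart.

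**Figure D1:**
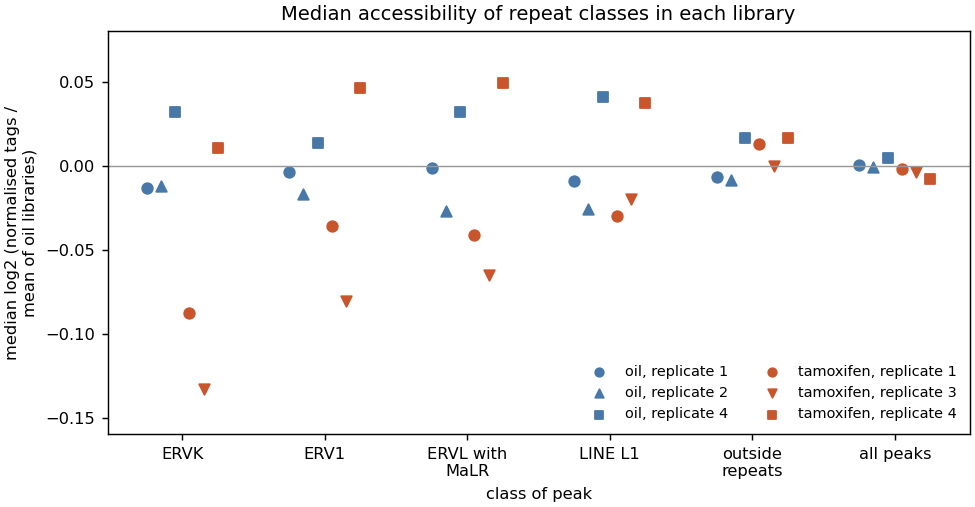
Median log2 of normalised tags over the mean of the oil libraries (vertical axis) for each class of peak (horizontal axis), 1 point per library, blue for oil and orange for tamoxifen, with a shape for each replicate number. For ERVK, tamoxifen replicates 1 and 3 lie at -0.088 and -0.13, below all oil libraries, and tamoxifen replicate 4 at 0.011 lies among them; the medians of all peaks stay close to 0.

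The share of all tags in peaks that fell in ERVK peaks was 1.06%, 1.07% and 1.11% with oil and 1.03%, 1.00% and 1.11% with tamoxifen (1.08% ± 0.0256 and 1.05% ± 0.0571, SD, n = 3 each), a difference that did not pass (exact two-sided permutation test, p = 0.5). With 3 libraries against 3 there are 20 assignments and the smallest p is 0.1. Relative to the other repeat classes the ratio was lower in every tamoxifen library than in any oil library. ERVK tags per ERV1 tag were 3.01, 3.05 and 3.07 with oil and 2.97, 2.96 and 2.98 with tamoxifen (-2.41%). Per ERVL or MaLR tag they were 0.410, 0.419 and 0.415 against 0.404, 0.394 and 0.405 (-3.29%), and per LINE L1 tag 0.924, 0.936 and 0.921 against 0.897, 0.865 and 0.912 (-3.86%). Each of these ratios reached the smallest p the exact permutation test allows (p = 0.1, 0.133 after adjustment over 4 ratios). Per tag outside repeats the groups overlapped (-3.92%, exact permutation p = 0.3).

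ERVK peaks lay in introns less often than peaks outside repeats, as did peaks of the other repeat classes. The ERVK peaks were intergenic in 2370 cases and intronic in 978 (29.2%), against 56.8% intronic among the intron and intergenic peaks outside repeats. Their median width was 254 bp, their median GC content 48.0% and their median distance to a transcription start site (TSS) 15050.5 bp, and 330 lay within 3000 bp of one. ERV1 peaks were alike in this, with 27.1% intronic, a width of 257 bp, a GC content of 48.0% and a distance of 13675.5 bp. ERVL and MaLR peaks were 37.4% intronic and L1 peaks 45.8%. A median ERVK peak held 38.1 normalised tags against 47.8 outside repeats, 42.1 in ERV1, 38.8 in ERVL and MaLR and 38.9 in L1 peaks. Of the ERVK peaks, 2084 (62.2%) were in the peak lists of both groups, 847 (25.3%) in the oil list alone and 417 (12.5%) in the tamoxifen list alone, against 71.4%, 17.4% and 11.2% of all peaks, and among those in both lists the median log2 change was -0.026. In the ERV1, ERVL with MaLR and L1 classes, 64.4% to 66.8% were in both lists and 19.9% to 21.5% in the oil list alone. LTRs made up 3016 of the ERVK peaks (median log2 -0.071) and internal parts 332 (0.014).

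Because copies of a family resemble each other, a read can have several possible sources, and the share of each peak that occurs once in the genome was counted. Of the 3343 ERVK peaks on assembled chromosomes, 2043 (61.1%) had every 50-base window only once in the genome, and 208 (6.22%) had under 50% of their windows only once, against 4.72% of ERV1, 0.321% of ERVL and MaLR and 1.19% of L1 peaks. With 100-base windows the count fell to 25 peaks (0.748%). The least and the most unique peaks both had medians below 0, -0.12 for the 43 peaks at 0 to 25% and -0.064 for the 2043 fully unique peaks. The fully unique peaks alone thus had the median of the class.

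The ERVK peaks belonged to 248 repeat names, of which 40 had at least 20 peaks and held 2051 of the 3348. RLTR10C (186 peaks), RLTR45 (161), RMER17C (150), RMER4B (135), RMER19B (108) and RMER6A (102) were the most frequent. By family, RMER17 names had 434 peaks, RLTR10 names 251, RLTR45 names 162, RMER19 names 150, IAP names 148 (23 names) and RLTR20 names 144, and the young ETn and MusD names had 26. IAP copies were the least unique of the large families after RLTR10 (median 63.5% and 57.7% of 50-base windows found once) and the richest in CpG among these (a median of 6 in the central 200 bp). The median log2 change was -0.19 for RLTR10, -0.14 for RMER13, -0.13 for ETn and MusD, 0.058 for IAP, 0.041 for ERVB and 0.093 for RLTR45 names.

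Expressed as a share of the tags in all ERVK peaks, 15 of the 40 names did not overlap between the groups, 8 higher and 7 lower with tamoxifen, and none passed the adjustment over 40 names (exact two-sided permutation tests, smallest p = 0.1, smallest adjusted p = 0.267). These shares add up within a library, so a rise in some names lowers the others. As a share of the tags in all peaks, 5 names were higher without overlap (RLTR50A, IAPLTR3-int, RLTR45, IAPEY4_LTR and RLTR20A4) and 4 lower (RLTR15, RMER6A, RMER17C2 and RLTR19-int), where 9.87% and 11.2% of 233 repeat names of all classes were. The count of names is thus near the background of the table, and the names below are described by their values.

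**Figure D2:**
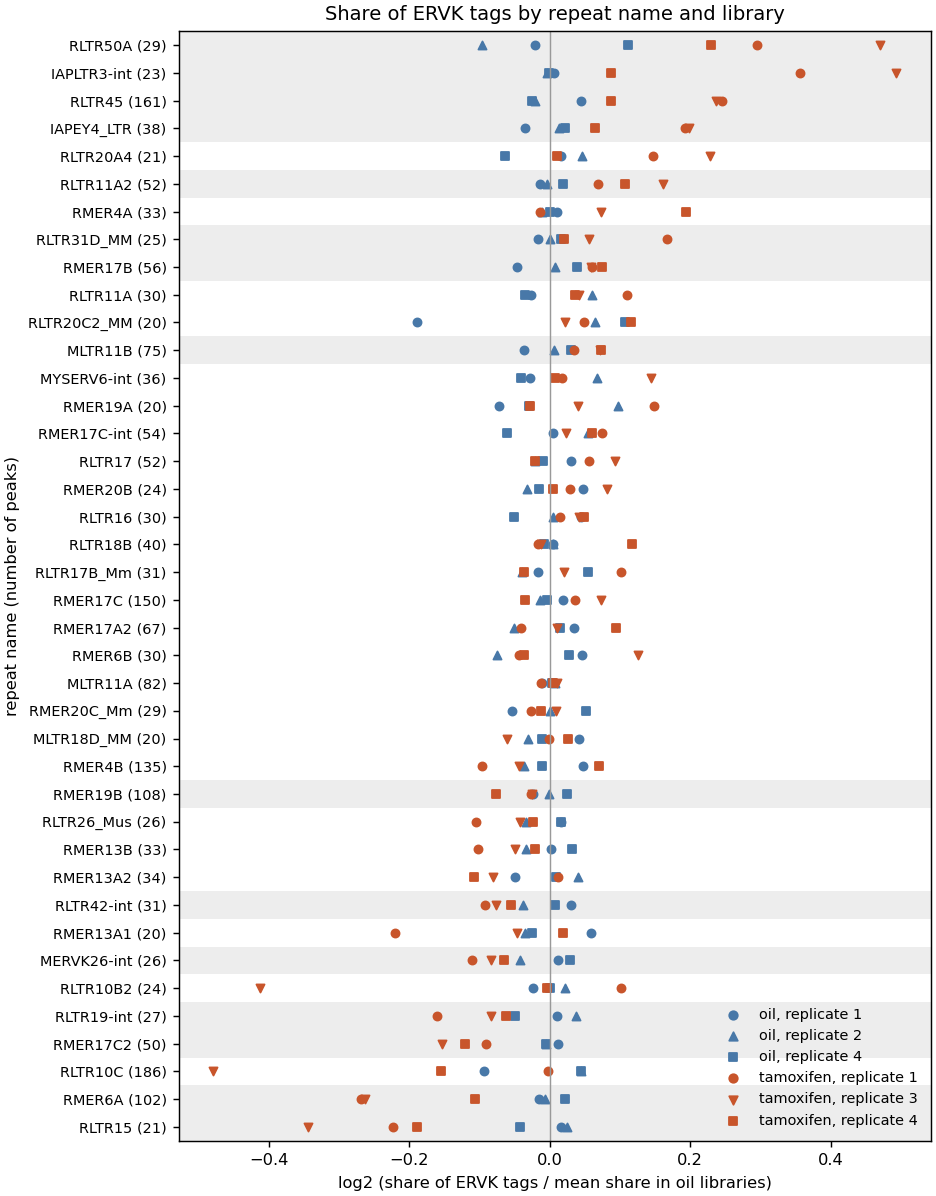
Share of ERVK tags that each repeat name took in each library, as log2 over the mean share of the oil libraries (horizontal axis), for the 40 repeat names with at least 20 peaks (vertical axis, number of peaks in brackets). Points are single libraries, and grey bands mark the 15 names whose oil and tamoxifen libraries do not overlap, with RLTR50A at the top and RLTR15 at the bottom.

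RLTR50A had the largest log2 ratio of the 40 names. Its 29 peaks held 1.14%, 1.08% and 1.25% of ERVK tags with oil and 1.42%, 1.60% and 1.36% with tamoxifen (log2 0.34 between the means). The gain was uneven over copies, since the median copy changed by log2 0.11, 17 of 29 lay above 0, and 4 were called higher. None of its copies was lower without overlap and 9 (31.0%) were higher, where 9.99% and 11.8% of all peaks were, and 0.654% of all peaks were called. The most open copies, such as those on chromosomes 1, 2 and 12 shown above with 316, 245 and 210 mean oil tags, changed by log2 0.034, 0.061 and 0.24.

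IAPLTR3-int, the internal part of an IAP family, held 1.66%, 1.64% and 1.65% of ERVK tags with oil and 2.11%, 2.32% and 1.75% with tamoxifen (log2 0.32). Here the shift was shared by most copies, with 19 of 23 above 0, a median of log2 0.25, 2 called higher and 11 (47.8%) higher without overlap against 1 (4.35%) lower. All of its peaks were intergenic, and their central 200 bp held a median of 7 CpG. IAPEY4_LTR, an LTR family of IAP type, had a smaller difference, with 1.25%, 1.30% and 1.30% against 1.47%, 1.47% and 1.34% (log2 0.15), 27 of 38 copies above 0 and none called. RLTR45 with 161 peaks held 3.84%, 3.67% and 3.66% against 4.42%, 4.39% and 3.96% (log2 0.19). Of its copies 93 lay above 0, 31 (19.3%) were higher and 12 (7.45%) lower without overlap, and 1 (0.621%) was called higher, a share near that of all peaks. In each of these names tamoxifen replicate 4 was the tamoxifen library nearest to oil.

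RMER6A held 2.55%, 2.57% and 2.62% of ERVK tags with oil and 2.14%, 2.15% and 2.40% with tamoxifen (log2 -0.21). Only 24 of its 102 copies lay above 0, with a median of log2 -0.26, and 26 copies (25.5%) were lower without overlap against 4 (3.92%) higher. RLTR15 held 0.756%, 0.760% and 0.726% against 0.640%, 0.588% and 0.655% (log2 -0.25), with 4 of 21 copies above 0. Of its peaks 47.6% were in the oil list alone, as were 35.3% of RMER6A peaks, beside 17.4% of all peaks. Such peaks were counted because they were found with oil, so their fall is partly built in. RMER17C2 held 1.62%, 1.60% and 1.60% against 1.51%, 1.44% and 1.48% (log2 -0.12), with 14 of 50 copies above 0. The related RMER17C did not share this, at 4.14%, 4.04% and 4.07% against 4.18%, 4.29% and 3.98%.

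RLTR10C, the most frequent name, had 34 of 186 copies above 0 and no called copy. Its median was log2 -0.22, with 33 copies (17.7%) lower without overlap and none higher. Of its peaks 35.5% were in the oil list alone and 1.61% in the tamoxifen list alone, beside 17.4% and 11.2% of all peaks. Peaks in 1 list alone lean towards that group by how they were found. The RLTR10C share of ERVK tags was 3.86%, 4.24% and 4.25% with oil and 4.11%, 2.95% and 3.70% with tamoxifen, so the groups overlapped (exact permutation p = 0.2). Tamoxifen replicate 3 gave most of the difference (log2 -0.20, and -0.077 without it). Of these peaks, 86 had under 50% of their 50-base windows once in the genome, the least unique of the frequent names (median 51.0%).

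**Figure D3:**
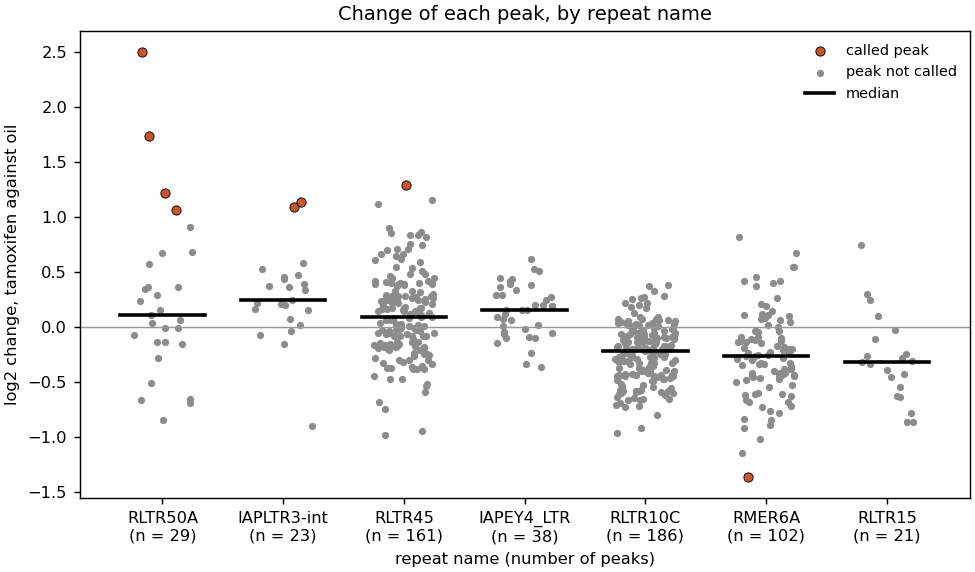
Log2 change of tamoxifen against oil for every ERVK peak of 7 repeat names (vertical axis), 1 point per peak, with called peaks in orange and the median of each name as a bar. RLTR50A spreads from below 0 to 2.5 with 4 called copies, IAPLTR3-int and IAPEY4_LTR sit mostly above 0, and RLTR10C, RMER6A and RLTR15 sit mostly below 0.

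Peak by peak, 34 ERVK peaks of 24 repeat names passed a DESeq2 adjusted p under 0.05 with a more than 2-fold change and are here termed called, 29 higher and 5 lower with tamoxifen. This is 1.02% of ERVK peaks, beside 0.654% of all peaks. In the higher direction it was 0.866% against 0.588%, in the lower direction 0.149% against 0.0659%, and for the other classes 1.36% of ERV1, 1.14% of ERVL and MaLR and 1.11% of L1 peaks were called, so the ERVK share lay below theirs. Without a limit on the fold, 60 of the 3348 ERVK peaks passed, beside 2448 of all 175929 peaks. In the other repeat classes 21 of 956 ERV1, 171 of 8103 ERVL and MaLR and 72 of 3699 L1 peaks did. Higher without overlap were 366 ERVK peaks (10.9%) and lower 439 (13.1%), where 11.8% and 9.99% of all peaks were. The called peaks had mean normalised tags of 19.1 to 434 and a median of 40.4, close to the 38.1 of all ERVK peaks. Of the 29 higher peaks 17 were in the tamoxifen list alone and 12 in both, and of the 5 lower peaks 3 were in the oil list alone. A peak in 1 list alone was counted because it was found as a peak in that group, so its direction is partly built in. Tamoxifen replicate 4 was the lowest of its group in 21 of the 29 higher peaks, as it was in 75.4% of all peaks called higher. The count was 15 to 19 without any single one of the other 5 libraries and 76 (43 higher, 33 lower) without tamoxifen replicate 4. Under edgeR's quasi-likelihood test it was 57, and with the replicate number as a block on the 4 libraries numbered 1 and 4 (replicate block) it was 2, both lower. In 20 of the 34, every 50-base window occurred once in the genome, and the least unique had 47.7%.

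**Figure D4:**
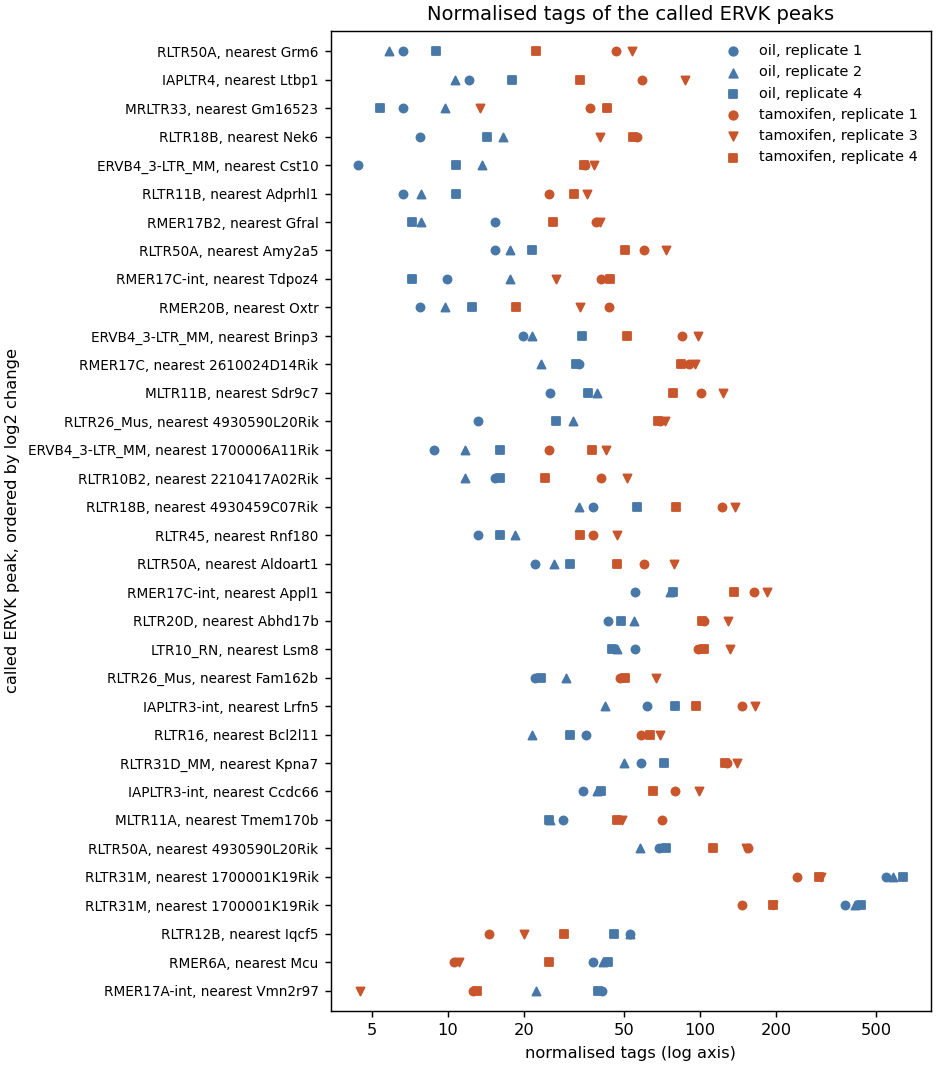
Normalised tags (horizontal log axis) of the 34 called ERVK peaks in each library, 1 row per peak, labelled by repeat name and nearest gene and ordered by log2 change. Blue points are oil libraries and orange points tamoxifen libraries, and they do not overlap in any row; the 5 lowest rows are the peaks lower with tamoxifen.

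RLTR50A gave the most called peaks of any name, 4 of 29, and ERVB4_3-LTR_MM came next with 3 of 6. At chr11:50849362-50849590, intergenic and -1209 bp from the TSS of Grm6 (a glutamate receptor of the retina), tags were 6.62, 5.85 and 8.96 with oil and 46.4, 53.5 and 22.3 with tamoxifen (log2 2.5 ± 0.48 SE, DESeq2 adjusted p = 1.14e-04). This was the largest change of any ERVK peak called. This copy and the next were in the tamoxifen list alone. They were counted because they were found as peaks with tamoxifen, so their rise is partly built in. At chr3:113228079-113228300, the first copy shown above, 30510 bp from the TSS of Amy2a5 (a pancreatic amylase), they were 15.4, 17.6 and 21.5 against 59.9, 73.5 and 50.3 (log2 1.74 ± 0.33, DESeq2 adjusted p = 7.05e-05). At chr1:141898005-141898227, -1241714 bp from the nearest TSS, they were 68.4, 57.5 and 73.5 against 155, 152 and 112 (log2 1.06 ± 0.21, DESeq2 adjusted p = 1.23e-04). The last was not called without oil replicate 2 (log2 0.97) or without tamoxifen replicate 1 (0.98), where its fold was under 2, and the Grm6 copy had no adjusted p without tamoxifen replicate 1 or 3, where DESeq2 gave none. The copy at chr4:72727716-72727921 was the weakest of the 4 in p, with log2 1.22. A nearest gene is given only to place a peak, and no link to that gene was measured.

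ERVB4_3-LTR_MM, an LTR name with too few peaks for the comparison of names, had all 6 peaks above 0, 5 of them higher without overlap, and a median of log2 1.50. Of its peaks 83.3% were in the tamoxifen list alone, 16.7% in both lists and 0% in the oil list alone. Most of them were thus counted because they were found as peaks with tamoxifen, so their rise is no measure of the name. Its 3 called peaks were intergenic, in the tamoxifen list alone, and held RUNX letters. At chr1:145957880-145958112 tags were 19.9, 21.5 and 34 with oil and 85.1, 98.0 and 51.2 with tamoxifen (log2 1.62 ± 0.32, DESeq2 adjusted p = 1.44e-04). At chr2:149283419-149283624 they were 4.41, 13.7 and 10.8 against 34.8, 37.9 and 34.5 (log2 1.87). At chr3:124474343-124474553 they were 8.82, 11.7 and 16.1 against 25.1, 42.3 and 37.2 (log2 1.50). Every tamoxifen library lay above the oil range at each, and the latter pair had few tags with oil.

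RMER17 sequences gave the called peaks with the smallest p among those higher. At chr11:21166547-21166919, an RMER17C LTR 67864 bp from the TSS of 2610024D14Rik, tags were 33.1, 23.4 and 32.3 with oil and 89.9, 95.8 and 83.8 with tamoxifen (log2 1.60 ± 0.26, DESeq2 adjusted p = 1.27e-06), and its central 200 bp held the ISRE core. At chr14:26976326-26976542, an RMER17C-int fragment -5883 bp from the TSS of Appl1 (an adaptor protein of endosomes), they were 55.2, 76.1 and 77.9 against 164, 184 and 136 (log2 1.20 ± 0.20, DESeq2 adjusted p = 1.64e-06). Every tamoxifen library lay well above the oil range at both, and both stayed called without any single library.

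The remaining named peaks that rose were 1 copy each of MLTR11B, RLTR31D_MM, IAPLTR4, RLTR20D and LTR10_RN and 2 of RLTR18B. The MLTR11B copy at chr10:127893810-127894060, -4600 bp from the TSS of Sdr9c7 (a dehydrogenase of the epidermis), had 25.4, 39.0 and 35.8 tags with oil and 101, 123 and 78.2 with tamoxifen (log2 1.58). Inside intron 11 of 12 of Kpna7 (an importin), the RLTR31D_MM copy at chr5:144988853-144989121 had 58.5, 49.7 and 71.7 against 128, 140 and 125 (log2 1.12, and 1.00 without oil replicate 2, just under the limit). The IAPLTR4 copy at chr17:75142872-75143141, in intron 3 of 33 of Ltbp1 (which binds latent TGF-beta), had 12.1, 10.7 and 17.9 against 59, 86.9 and 33.5 (log2 2.12). These 3 copies kept apart between the groups, with tamoxifen replicate 4 the lowest of its group at each. RLTR18B at chr10:96204246-96204521 rose by log2 1.41 and at chr2:38543240-38543452, in intron 1 of 9 of Nek6 (a mitotic kinase), by 1.95, and both held RUNX letters. RLTR20D at chr19:21713679-21713920 rose by 1.20 and LTR10_RN at chr6:18841055-18841408, -7404 bp from the TSS of Lsm8 (part of the U6 snRNA complex), by 1.19.

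The smallest p among ERVK peaks belonged to a loss. A pair of RLTR31M peaks, 50 bp apart in intron 1 of 5 of 1700001K19Rik, fell with tamoxifen. At chr12:110679273-110679734 tags were 545, 581 and 639 with oil and 243, 301 and 295 with tamoxifen (log2 -1.08 ± 0.11 SE, DESeq2 adjusted p = 2.18e-17). At chr12:110679785-110680134 they were 374, 412 and 434 against 147, 194 and 194 (log2 -1.19 ± 0.13, DESeq2 adjusted p = 2.03e-15). Both peaks were fully unique in the genome, were in the lists of both groups and were among the more open ERVK peaks. Both stayed called under the replicate block (log2 -1.14 and -1.26, DESeq2 adjusted p = 0.0227 and 0.0234), and without tamoxifen replicate 1 the first was at log2 -0.98, under the fold limit. They lie 11.3 and 10.9 kb beyond the 3′ end of Hsp90aa1, which encodes the stress-inducible form of the chaperone HSP90 and is read from the minus strand (chr12:110691036-110696395). On the other side of that gene, the RMER17C peak at chr12:110698919-110699177, -2653 bp from its TSS, had 364, 368 and 357 tags with oil and 340, 361 and 363 with tamoxifen (log2 -0.032, DESeq2 adjusted p = 0.991), so the groups overlapped there.

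The other called losses were peaks of the oil list alone. RMER17A-int at chr17:18955455-18955676, 41243 bp from the vomeronasal receptor gene Vmn2r97, had 40.8, 22.4 and 39.4 tags with oil and 12.6, 4.46 and 13 with tamoxifen (log2 -1.75). RLTR12B at chr9:106510208-106510508 had 52.9, 52.7 and 45.7 against 14.5, 20.1 and 28.9 (log2 -1.25). RMER6A at chr10:59649552-59649886, -33027 bp from the TSS of Mcu (the mitochondrial calcium uniporter), had 37.5, 41.0 and 43.0 against 10.6, 11.1 and 25.1 (log2 -1.36). Their DESeq2 adjusted p were 0.0171, 0.0231 and 0.0425. The calls of RLTR12B and RMER6A were lost without any single library other than tamoxifen replicate 4 (DESeq2 adjusted p from 0.141 to 0.487), and RMER17A-int was lost without tamoxifen replicate 3 (0.33) and had no adjusted p in 4 of the other fits with 1 library left out.

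Below the fold limit, several more open copies also passed the adjusted p. Without that limit 60 ERVK peaks passed, as did 2448 of all 175929 peaks. Of the 60, 47 were higher and 13 lower, beside 29 and 5 called, so most of the added peaks were higher. The lower ones named by rule included RLTR26_Mus at chr9:22149481-22149697 (log2 -0.59, DESeq2 adjusted p = 0.00509), RLTR17 at chr12:69119999-69120290 (-0.93) and MLTR18_MM at chr3:51375941-51376172 (-0.69). Also named were RLTR9B2 at chr3:14907329-14908064, 21408 bp from the TSS of Car2 (carbonic anhydrase 2), at -0.80, RMER4B at chr8:123854751-123855254 (-0.48) and RLTR9B at chr1:173844793-173845072 (-0.93). The last has Mndal, an interferon-inducible gene of the p200 family, as its nearest gene at 35255 bp. It held 110, 102 and 120 tags with oil and 50.3, 33.4 and 89.4 with tamoxifen (DESeq2 adjusted p = 0.0355). It did not pass under edgeR (adjusted p = 0.0903) or without any single one of the other 5 libraries (DESeq2 adjusted p from 0.211 to 0.92), and without tamoxifen replicate 4 it was called (log2 -1.39, DESeq2 adjusted p = 1.57e-05). The other lower ones named here passed under edgeR too. Without any single library other than tamoxifen replicate 4, however, RLTR26_Mus, MLTR18_MM, RLTR9B2 and RMER4B did not pass (DESeq2 adjusted p from 0.0533 to 0.456). RLTR17 was called without oil replicate 2 (log2 -1.02, DESeq2 adjusted p = 0.0395) and did not pass without oil replicate 1 or 4 or tamoxifen replicate 3 (0.117 to 0.174). In the other direction, the most open RLTR45 copy, at chr15:19857289-19857590, had 386, 351 and 423 against 631, 674 and 541 (log2 0.67 ± 0.11, DESeq2 adjusted p = 9.75e-07). The groups did not overlap at any of these 7 peaks.

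Of the 5 ERVK peaks with the highest mean tags in the oil libraries, the first RLTR31M peak alone was called. MLTR11B at chr8:83768569-83768927, -27437 bp from the TSS of Adgre5 (the adhesion receptor CD97), was the highest with 881, 848 and 828 tags with oil and 776, 800 and 880 with tamoxifen (log2 -0.057). RLTR18B in intron 9 of 16 of Vwa7 had 633, 619 and 579 against 515, 445 and 603 (log2 -0.22), BGLII_B in intron 6 of 7 of Fam228a 569, 628 and 588 against 588, 631 and 567 (-0.0017), and RLTR44C at chr1:130377811-130378135 549, 608 and 593 against 498, 597 and 535 (-0.11). The groups overlapped at these 4. Among the frequent names, the highest RMER6A copy, in intron 7 of 14 of Sh3d19, had 289, 246 and 280 tags with oil and 113, 138 and 243 with tamoxifen (log2 -0.72, DESeq2 adjusted p = 0.47). Without tamoxifen replicate 4 this copy was called (log2 -1.11, DESeq2 adjusted p = 4.31e-09). The highest RLTR10C copy had 268, 260 and 262 against 223, 195 and 251 (-0.23), the highest RMER4B copy, -1106 bp from the TSS of March6, 372, 332 and 323 against 284, 276 and 324 (-0.21), and the highest RMER19B copy 388, 371 and 389 against 344, 410 and 401 (0.0087). The groups did not overlap at the RMER6A and RLTR10C copies and overlapped at the other two.

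Motif letters in the central 200 bp, read on both strands, differed between repeat names far more than between classes. A match says only that the letters occur, and overlapping matches of different motifs were each counted. ERVK peaks as a class held RUNX letters in 7.84%, PU.1 in 5.47%, GATA in 9.54%, AP-1 in 9.0% and C/EBP in 9.9%, against 6.13%, 3.66%, 7.51%, 7.49% and 7.2% of the 96683 intron and intergenic peaks outside repeats. The ISRE core was in 5.41% against 5.56%, STAT letters in 4.31% against 5.4%, NF-kB letters (GGGANTTCC) in 1.68% against 0.991%, the E-box in 13.4% against 14.3%, YY1 letters (AANATGGCG) in 1.41% against 0.344%, and the CTCF core (CAGGGGGCG) in 0.239% against 0.928%.

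Some names carried a motif in most of their copies and others in a smaller share that was still above the class. RUNX letters were in 72.4% of RLTR50A, PU.1 letters in 65.5% and STAT letters in 48.3%. C/EBP letters were in 94.7% of IAPEY4_LTR and 53.4% of RLTR45, and the E-box in 89.5% of IAPEY4_LTR, 45.1% of MLTR11A and 41.7% of RMER19B. AP-1 letters were in 59.6% of RLTR17 and 27.5% of RMER6A. The ISRE core was in 42.9% of RLTR15, 30.4% of IAPLTR3-int and 24.5% of RMER6A, so names with this motif were found among those with a higher and those with a lower share after tamoxifen. RLTR10C had RUNX letters in 0% of its 186 peaks and C/EBP letters in 17.2%. RLTR18B, with 2 called copies, held RUNX letters in 32.5% and GATA letters in 27.5%, and RMER6B held PU.1 letters in 40%.

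**Figure D5:**
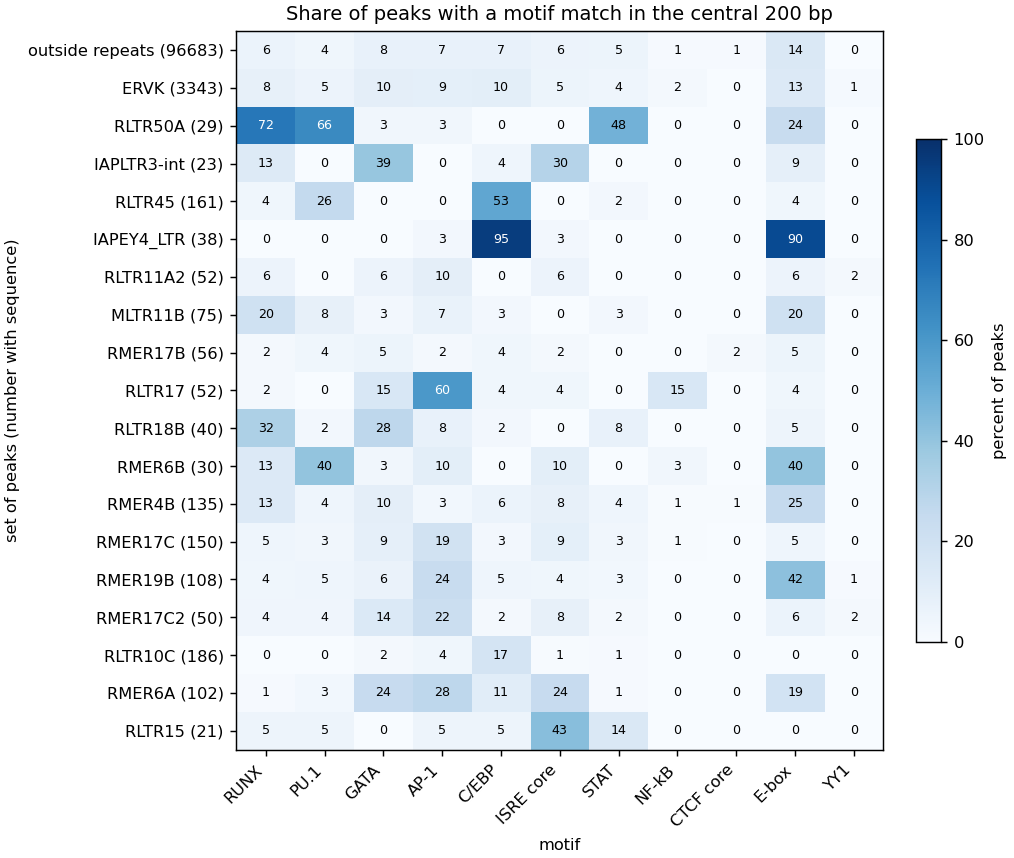
Percent of peaks with a motif match in the central 200 bp (colour and number, rounded) for peaks outside repeats, for ERVK as a whole and for 17 repeat names (vertical axis, number of peaks with sequence in brackets) and 11 motifs (horizontal axis). RLTR50A stands out for RUNX, PU.1 and STAT and IAPEY4_LTR for C/EBP and the E-box. The rounded percents of the class are near those outside repeats. At low values, YY1 letters (1.41% against 0.344%) and the CTCF core (0.239% against 0.928%) differ.

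Where a name held a pair of motifs, they often sat at the same distance. In RLTR50A, 21 of 29 copies had RUNX letters, and all 11 of these with STAT letters in the window had them starting 8 bp after the RUNX start, as in 3 of the 4 copies printed. PU.1 letters were in the window of 14 of the 21, in 7 at -107 bp. In IAPLTR3-int, 9 of 23 copies had GATA letters, and the 5 of these with an ISRE core had it 125 bp on. In IAPEY4_LTR, 36 of 38 copies had C/EBP letters, 32 of these also had an E-box and 19 had it at -50 bp.

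Over all names, the 262 ERVK peaks with RUNX letters had a median log2 change of 0.060 and the 183 with PU.1 letters 0.080, where the class median was -0.063. Outside repeats the medians with these letters were 0.089 and 0.11. ERVK peaks with GATA letters lay lower, at -0.12, and outside repeats at -0.034, and the erythroid marker genes, known targets of GATA factors, had lower sums with tamoxifen as given above. The part of these cells in the result was not tested. For the ISRE core the median was -0.038 (181 peaks) against 0.018 outside repeats, for STAT -0.080 (144 peaks) against 0.033, for AP-1 -0.052 against 0.066, and for C/EBP -0.026 against 0.021. Called were 9 peaks with RUNX letters (3.44%, all higher), 9 with GATA letters (2.82%, 6 higher), 10 with the E-box (2.24%, 7 higher), 5 with STAT letters (3.47%, all higher), 5 with the ISRE core (2.76%, 4 higher), 3 with C/EBP letters (0.906%), 2 with PU.1 letters (1.09%) and 2 with AP-1 letters (0.664%), beside 1.02% of all ERVK peaks. Of all peaks 0.654% were called. Among the 29 ERVK peaks called higher, 17 were in the tamoxifen list alone, so they were counted because they were found as peaks with tamoxifen. The direction of the calls is thus partly built in. Peaks with motif letters also overlap between motifs and share families, so the medians and counts are a description.

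ERVK peaks nearest to the typical interferon-stimulated genes listed did not pass the test. Of 88 such genes, 77 were named in the table. Of these, 13 (16.9%, beside 12.8% of all genes named) were the nearest gene of 15 ERVK peaks. None of the 15 was called, where 0.654% of all peaks were, and at that share so few peaks would seldom hold a call. None had a DESeq2 adjusted p under 0.05, and their median log2 change was 0.13. Mndal, the gene nearest to the RLTR9B peak described above, was not on the list. Higher without overlap were 2 of the 15 (13.3%), near the 11.8% of all peaks, and none was lower. They were RMER17C at chr15:74931254-74931632, -23608 bp from the TSS of Ly6e (a membrane protein that limits virus entry), with 109, 104 and 95 tags against 114, 147 and 130 (log2 0.34, DESeq2 adjusted p = 0.594), and RLTR17 at chr16:35829980-35830269, nearest to Parp14 (an ADP-ribosyltransferase), with 26.5, 27.3 and 25.1 against 29.0, 29.0 and 30.7 (0.17). In intron 1 of 6 of Ifi35, RLTR12E had 225, 287 and 257 against 271, 308 and 300 (0.19). Next to genes of the OAS family, which sense double-stranded RNA, BGLII_B at -1008 bp from the TSS of Oas1g had 183, 174 and 183 against 128, 113 and 186 (-0.33) and RLTR10C near Oas1a 59.6, 100 and 78.8 against 69.6, 40.1 and 65.2 (-0.45). The groups overlapped at these 3.

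Genes that silence endogenous retroviruses or sense their nucleic acids showed no called change at their promoters. Of the 29 silencing genes listed, 28 (not Pphln1) had 104 peaks within 3000 bp of a TSS, none called and none with an adjusted p under 0.05 (DESeq2), with a median log2 change of -0.025. Of these peaks 5.77% were higher and 13.5% lower without overlap, where 11.8% and 9.99% of all peaks were. Over all 53478 peaks that near a TSS, 134 were called higher and 27 lower, so lists of this size would seldom hold a call. The Trim28 promoter held 536, 519 and 502 tags with oil and 493, 541 and 499 with tamoxifen (log2 -0.022), and the Setdb1 promoter 299, 294 and 255 against 278, 292 and 315 (0.063). The Uhrf1 promoter was lower without overlap, at 545, 486 and 507 against 407, 368 and 479 (-0.29, DESeq2 adjusted p = 0.229). Of 23 sensing and restriction genes, 22 (not Tlr7) had 93 such peaks, none called and none with an adjusted p under 0.05, with a median of -0.0034. Higher without overlap were 7.53% of these and lower 6.45%. The peak at Zbp1 was higher without overlap at few tags, 17.6, 17.6 and 17.0 against 40.6, 24.5 and 24.2 (0.78, DESeq2 adjusted p = 0.566). Ifih1, the RNA sensor MDA5, had 394, 426 and 392 against 421, 428 and 400 (0.044), and Adar, which edits double-stranded RNA, 653, 641 and 617 against 619, 651 and 601 (-0.032).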

How the data were processed

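ATAC-seq tags were measured in 6 libraries, 3 per group. According to the methods, the authors mapped reads to mm10 with Bowtie2 at its default parameters, which report a single position for a read that has several equally good ones, found peaks with HOMER in each group, merged them and counted tags per peak. The deposited values are estimated counts in steps of 0.5, not scaled for depth, with at most 3 tags per position per the file headers. Tool versions, and whether such reads were kept in later steps, are not given in the sources used here. The peak annotation, with repeat names, came from the same table.

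Tags were rounded to whole numbers and all 175929 peaks were fitted with DESeq2 1.42.0 (R 4.3.3, Wald test, Benjamini-Hochberg over all peaks), and calls needed an adjusted p under 0.05 with a more than 2-fold change. edgeR 4.0.16 was an alternative. The study removed peaks within 3000 bp of a TSS before its test, which was kept here as an alternative. Normalised tags are tags divided by DESeq2 size factors. Library medians used log2 with a pseudocount of 0.5. Shares and ratios of tags were compared by exact permutation over 20 assignments of the libraries, and repeat names with at least 20 peaks were compared one by one. Sequences and the gene models came from NCBI RefSeq GRCm38.p6, the genome behind mm10. Uniqueness is the share of 50-base windows of a peak found once in that genome on either strand. For peaks outside repeats it was taken from 3000 sampled peaks. A further 5 ERVK peaks on unplaced scaffolds had no sequence here. The fit was tested on simulated counts for 175929 peaks, where it called 184 of 200 peaks changed 4-fold and 9 others.

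Symbols of the gene lists that name the same gene were merged by RefSeq synonyms. The members and lists were chosen with earlier results of these data known. Peaks were named by rule: at most the 12 called with the smallest adjusted p in each direction, filled up to 10 by p where fewer than 10 were called, the copy with the most oil tags for each of the 6 most frequent repeat names, and the 5 ERVK peaks with the most oil tags. Other peaks, repeat names and genes named were chosen after their values were seen. Replicate numbers 1 and 4 occur in both groups, but the labels give them no shared mouse or batch.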

Additional observations from a re-analysis of the deposited data

How the results depend on the processing

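The count of 34 called ERVK peaks stayed within 1.5 times under other size factors, an adjusted p under 0.1, distal peaks alone, any location of the ERVK peak, or peaks at least 90% unique in 50-base windows (24 to 41 calls). It was 57 (46 higher, 11 lower) with edgeR, 60 (47 higher, 13 lower) without a limit on the fold and 14 among peaks in both lists. Without 1 library it ranged from 15 to 76, the highest without tamoxifen replicate 4. With the replicate block on the 4 libraries numbered 1 and 4 it was 2, and 13 of the 34 then had no adjusted p. Deviations of same-numbered libraries correlated at -0.044 and 0.051 over all peaks. These values come from groups of 3 libraries and cannot decide whether such libraries share a mouse or batch. The median log2 change stayed negative in every setting, from -0.11 without tamoxifen replicate 4 to -0.019 without tamoxifen replicate 3, and was -0.038 with the replicate block. The difference in the ERVK share of tags and the 3 ratios to other repeat classes also stayed negative. For the 3 ratios the sign could not turn when a library was left out, since the groups did not overlap. Of the 40 repeat names, 15 did not overlap, and 9 per tag in all peaks, 8 of them shared with the 15. Without 1 library the count was 15 to 23 (23 without tamoxifen replicate 4). Leaving out a library cannot make separate groups overlap, so this count could not fall below 15.

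Near-zero changes of peaks that were not called turned sign. RMER19B at chr6:72480043, at log2 0.0087, gave -0.0046 with size factors from tags in peaks, -0.0061 among distal peaks, -0.067 with the replicate block and -0.014, -0.037 and -0.023 when oil replicate 2, tamoxifen replicate 3 or tamoxifen replicate 4 was left out, up to 0.085 when tamoxifen replicate 1 was. BGLII_B at chr12:4719936, at -0.0017, gave 0.038, 0.0075 and 0.033 when oil replicate 2 or tamoxifen replicate 1 or 4 was left out. With a 300 bp window the ERVK motif shares rose to 11.0% for RUNX, 11.3% for GATA, 12.1% for AP-1, 14.5% for C/EBP, 8.53% for the ISRE core, 7.09% for STAT, 17.7% for the E-box and 1.94% for YY1, as a wider window holds more letters. With 100-base windows, 0.748% of ERVK peaks were under 50% unique. A filter at a mean of 10 tags removed no ERVK peak. The median of 32.5 to 43.75 tags per ERVK peak limits the precision of single copies.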
